A study of Mus musculus with 110 samples.

Results

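The JH cluster is the stretch of the mouse immunoglobulin heavy chain locus (Igh) that holds the 4 JH gene segments, and the junctions described here join a JH4 bait to a prey position inside it. All junctions on chromosome 12 between positions 114660000 and 114672800 were taken, a window of 12801 bp that ends below Ighd4-1, the D segment nearest to JH. Positions are those of the hybrid of mm9 and the Igh sequence AJ851868 to which the submitters aligned the reads. The window held 35077 of 3602400 junctions, or 0.974%, in 98 libraries of 13 groups.

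The libraries were made by LAM-HTGTS V(D)J-seq, which extends a primer in the JH4 region by linear amplification and sequences whatever DNA has become joined to it. Of the 13 groups, 12 were v-Abl transformed pro-B cell lines that were RAG2 deficient, carried an Emu-Bcl2 transgene, received RAG2 by nucleofection and were held in 3 µM STI-571, an Abl kinase inhibitor, for 4 days. Each line was taken without or with the auxin IAA at 500 µM, which was added 6 h before STI-571 and kept on. The lines were parental (4 replicates per treatment), Ostir only, with an Ostir1 knock in (4), CTCF tagging only, with CTCF-mAID-GFP tagging (4), CTCF degron (6), Rad21 degron (3), and Rad21 degron with IGCR1 deleted (4). Genotype labels of parental replicates 3 and 4 without IAA, and of all parental replicates with it, carry the word WT, which is missing from parental replicates 1 and 2 without IAA. The last group was sorted wild-type 129SV bone marrow pro-B cells (B220+CD43+IgM-, a sort that the label of replicate 1 does not state) in 6 replicates, a group with no RAG2 nucleofection, no STI-571 and no transgene. The labels do not say whether a line is 1 clone or whether replicates were separate cultures or mice, so p-values measure only the spread between these samples. No sequencing run held both bone marrow and cell line libraries, so cell type and run cannot be told apart in comparisons with bone marrow. The CTCF degron, Rad21 degron and IGCR1-deleted lines were each sequenced in runs without another line, so line and run cannot be told apart there either. Parental replicates 1 and 2 with IAA shared no run with parental replicates without IAA, while replicates 3 and 4 of both treatments shared a run.

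RAG cuts DNA beside VH, D and JH segments at recombination signals, each made of a heptamer, a spacer and a nonamer, and joins the coding ends. A D segment has such a signal on either side and is joined to a JH first, after which a VH joins the other side of that D. Cohesin, of which Rad21 is a subunit, moves chromatin past the RAG complex at the JH end of the locus, and CTCF sites, among them those in the control region IGCR1, hinder that movement. Igh is transcribed from the minus strand, so in these libraries a plus-orientation junction is the deletional kind that joins JH4 to an upstream D or VH, and a minus-orientation junction joins 2 segments head to head.

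The 4 JH segments are shown with the signal sequence that stands before them, since nearly all junctions in the window fell at their ends. Each line gives 39 bases of signal, with the heptamer next to the coding end in capitals, and the first 30 coding bases, 5′ to 3′ on the minus strand, as the deposited reads have them.
JH1: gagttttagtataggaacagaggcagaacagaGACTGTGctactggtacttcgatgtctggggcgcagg
JH2: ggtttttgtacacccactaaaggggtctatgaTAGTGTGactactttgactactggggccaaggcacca
JH3: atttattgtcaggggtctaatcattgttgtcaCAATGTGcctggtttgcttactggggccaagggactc
JH4: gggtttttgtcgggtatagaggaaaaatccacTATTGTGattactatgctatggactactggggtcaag

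On chromosome 12 of the hybrid, these 69-base stretches lie on the minus strand at chr12:114672365-114672433 for JH1, chr12:114672047-114672115 for JH2, chr12:114671664-114671732 for JH3 and chr12:114671098-114671166 for JH4. The first coding base, called the coding end below, was at 114672394 for JH1, 114672076 for JH2, 114671693 for JH3 and 114671127 for JH4. JH3, JH2 and JH1 thus lay 566, 949 and 1267 bp from the JH4 coding end. In mm9, matched by sequence, the coding ends were at 114668044, 114667726, 114667343 and 114666778. The annotation places gene models there for Ighj1 (114667992 to 114668044), Ighj3 (114667296 to 114667343) and Ighj4 (114666725 to 114666778), each ending at the coding end. Its model for Ighj2 (114667725 to 114667778) covers the signal side instead. The bait began at 114671007, 121 bp from the JH4 coding end.

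Most of the junctions were head-to-head joins of JH4 to another JH segment. Minus-orientation junctions at the coding end of JH3 numbered 16433 (46.8% of the window), those at JH2 12627 (36.0%) and those at JH1 3438 (9.80%). The single positions with most junctions were 114671694 at JH3 with 2770 junctions in 92 libraries, 114672076 at JH2 with 2274 in 91 and 114672392 at JH1 with 685 in 87. These lay within 2 bp of the 3 coding ends. Plus-orientation junctions at the signal side of the same segments were rarer, with 2.36% of the window at JH3, 0.516% at JH2 and 0.291% at JH1. JH4 itself held 58 minus-orientation junctions at its coding end, of which 49 came from bone marrow. Plus-orientation junctions at JH4 or between it and the bait start lay beyond the end of the bait alignment in 361 cases and at or before it in 162. The other 406 minus and 480 plus junctions fell elsewhere in the window.

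**Figure D1:**
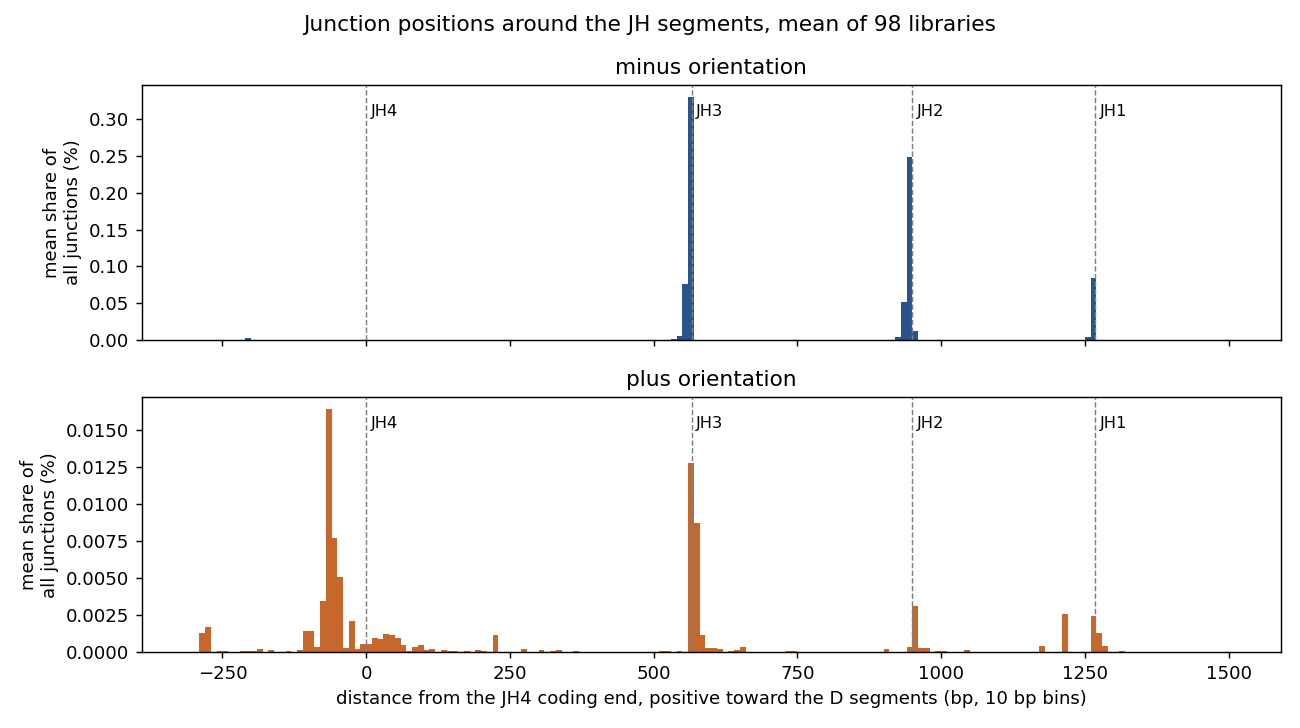
Junctions in 10-bp bins by distance from the JH4 coding end (x axis, bp), as mean percent of all junctions over the 98 libraries, with minus orientation and plus orientation drawn separately. The 3 minus-orientation peaks stand at 566, 949 and 1267 bp, the coding ends of JH3, JH2 and JH1.

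The head-to-head joins were not made of JH sequence alone. Between the bait and the prey alignments lay a median of 13 unaligned bases (lower and upper quartile 7 and 18, longest 30), and in 58.97% of the 32498 joins at JH1, JH2 or JH3 these bases held at least 7 in a row that matched a D segment in the sense direction of Igh transcription. The antisense match was found in 0.865%, and 4.89% of joins had no inserted base. In 308949 junctions between JH4 and VH segments, read from the same bait, the directions were the other way round: 71.58% held an antisense D and 0.449% a sense D, with a median insert of 15 bases. Read from JH4, an antisense D has its 3′ side against JH4, as in an ordinary DJH join. A sense D has its 5′ side against JH4 and its 3′ side against JH1, JH2 or JH3. The search accepted 7 matching bases, which favours long D segments. With 6 bases the sense share was 63.7% and the antisense share 1.66%, and with 8 they were 53.2% and 0.591%. All these shares are sums over libraries, and replicates of a line could differ. In Ostir only replicates 3 and 4, 17.7% to 27.9% of joins at JH1 to JH3 had no inserted base. In its replicates 1 and 2, from another sequencing run, 2.17% to 3.11% had none.

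The D segments were recovered from the reads at 12 positions of plus-orientation junctions. Those that match the joins shown next are given on the sense strand. Ighd1-1 (family 1, 23 bases, also called DFL16.1) lies farthest from JH at mm9 chr12:114720381-114720403, and Ighd4-1 (family 4, 11 bases, also called DQ52) nearest to it at mm9 chr12:114668739-114668749. The family 2 segment has its junction peak at hybrid position 114690286 and shares 16 of its 17 bases with Ighd2-8 of mm9, its closest match there. The 7 bases of the family 2 read shown next also occur in Ighd2-8 and in the D at 114695747. Which of these segments that read came from cannot be told.
Ighd1-1: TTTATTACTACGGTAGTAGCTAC
family 2 D at 114690286: CCTACTATGGTAACTAC
Ighd4-1: CTAACTGGGAC

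For each kind of join, the insert found in the largest number of libraries shows the arrangement in single reads. Each insert is given with the flanks most often read beside it. Each line begins with 15 bases of JH4, read from the bait, gives the bases that match a D segment in capitals and ends with the prey segment.
JH4 to JH3, family 1: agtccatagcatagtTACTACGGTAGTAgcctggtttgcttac
JH4 to JH3, family 2: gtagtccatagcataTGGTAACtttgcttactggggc
JH4 to JH2, family 1: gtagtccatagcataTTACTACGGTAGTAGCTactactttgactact
JH4 to JH2, family 4: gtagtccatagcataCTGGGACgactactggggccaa
JH4 to JH1, family 1: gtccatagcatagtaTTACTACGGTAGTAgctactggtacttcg
JH4 to VH, family 1: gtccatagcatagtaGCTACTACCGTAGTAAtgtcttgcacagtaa

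Counts are of reads with the same insert, whatever the trimming of JH4 and of the prey. In the first of these reads 13 bases of Ighd1-1 stand in the sense direction between JH4 and JH3, and this insert was found 12 times in 9 libraries. The JH2 read with Ighd1-1 kept 17 bases of the D, and its insert was found 38 times in 21 libraries. The insert of the JH2 read with Ighd4-1 was found 16 times in 12 libraries and that of the JH3 read of family 2 23 times in 15. The last line is the JH4 to VH read, where 16 bases of Ighd1-1 stand in the antisense direction, an insert found 417 times in 63 libraries.

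The inserts set these junctions apart from direct joins of JH4 to a D segment. In CTCF degron cells without IAA, junctions of the whole window had a mean insert of 11.4 ± 0.90 bases (SD, n = 6), against 1.95 ± 0.33 at Ighd4-1 and 1.82 ± 0.36 at Ighd1-1. The window was higher in 6 of 6 replicates against either D (exact sign-flip test, two-sided, p = 0.0313, adjusted p = 0.0563 over 18 tests, the smallest this design allows). In bone marrow the means were 13.7 ± 0.81, 3.32 ± 0.30 and 2.97 ± 0.10 bases (n = 6, exact sign-flip p = 0.0313 against either D, adjusted p = 0.0563). In parental cells without IAA they were 11.2 ± 0.79, 1.47 ± 0.79 and 1.24 ± 0.72 bases, with the window higher in 4 of 4 replicates, where no exact test can go below p = 0.125. Overlaps, in which bait and prey share bases, made up 4.08% ± 0.74 of the window against 12.7% ± 2.6 at Ighd4-1 in CTCF degron cells without IAA (lower in 6 of 6, exact sign-flip p = 0.0313, adjusted p = 0.0563). In bone marrow the window had 3.84% ± 1.28 and Ighd4-1 5.23% ± 0.54, lower in the window in 5 of 6 replicates (exact sign-flip p = 0.0938, adjusted p = 0.125).

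**Figure D2:**
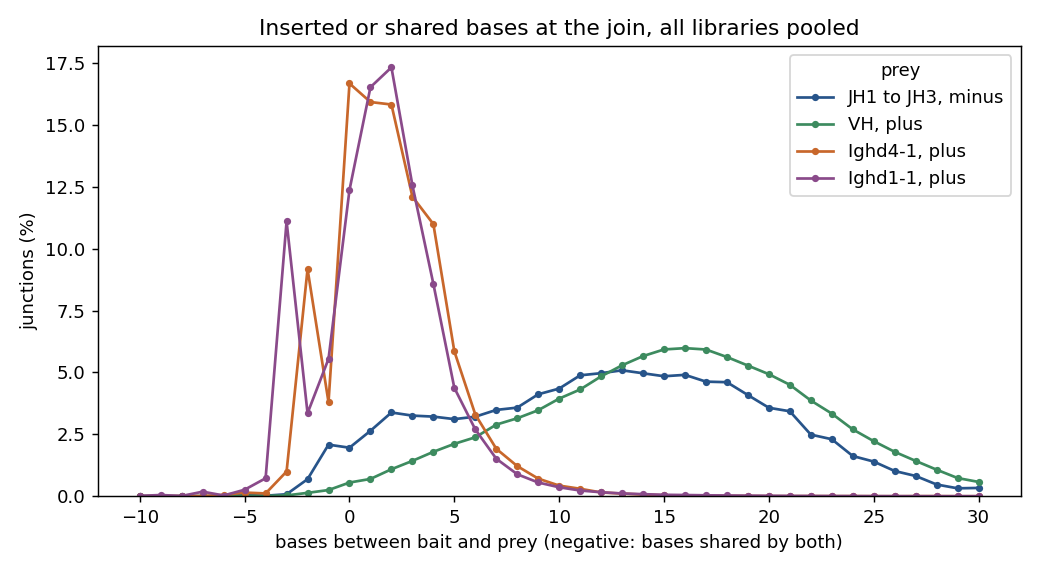
Percent of junctions (y axis) by number of unaligned bases between bait and prey (x axis, negative where they overlap), for minus-orientation joins at JH1 to JH3, plus-orientation joins at VH, and direct joins at Ighd4-1 and Ighd1-1, over all full libraries. The JH1 to JH3 joins have a median of 13 bases and the VH joins 15, while the direct D joins lie near 0, with mean inserts of 1.24 to 3.32 bases in the groups described.

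The 3 prey segments differed in how their ends were trimmed and in the D they carried. The median number of coding bases lost was 3 at JH3, 5 at JH2 and 2 at JH1, and the bait lost a median of 4 at each. Joins without an inserted base made up 4.48% at JH3, 4.10% at JH2 and 9.72% at JH1. Of the reads with a sense D, family 1 accounted for 25.7% at JH3, 40.02% at JH2 and 45.9% at JH1, and family 2 for 62.4%, 45.6% and 42.1%. Family 4, whose only member is Ighd4-1, made up 8.63%, 12.8% and 11.3%, and family 3 2.80%, 1.37% and 0.276%. These shares are sums over libraries of unequal size and were not tested between segments. Bases that a D and the JH have in common are given to the JH by the alignment, and the part of this in the differences between segments was not tested.

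Among the 11 groups with at least 10 such reads with a D in every replicate, a limit set after the data were seen, the split over JH3, JH2 and JH1 did not pass the test in any comparison. It was 51.9%, 37.1% and 11.03% in parental cells without IAA, 51.1%, 36.7% and 12.2% in CTCF degron cells with IAA and 53.0%, 38.4% and 8.60% in bone marrow. The range of group means was 42.3% to 53.0% for JH3, and the lowest was that of the IGCR1-deleted line without IAA, where JH2 stood at 40.9% and JH1 at 16.8%.

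The D segment caught between JH4 and the other JH differed between cells. In bone marrow, family 2 made up 80.0% ± 2.7 of the sense D inserts (lowest 75.5%, median 80.3%, highest 83.0%, n = 6). In parental cells without IAA it made up 54.4%, 54.0%, 36.8% and 43.2% in replicates 1 to 4. The groups did not overlap, and the mean difference was 32.9 percentage points (SE 4.5, exact permutation test, two-sided, p = 0.00476, adjusted p = 0.0873). Family 1 stood at 15.7% ± 3.4 in bone marrow and at 34.2%, 27.0%, 52.7% and 45.4% in the parental replicates (exact permutation p = 0.00476, adjusted p = 0.0873). Family 4 stood at 1.27% ± 0.62 and at 8.86%, 12.7%, 7.76% and 9.30% (exact permutation p = 0.00476, adjusted p = 0.0873). Bone marrow inserts were also longer, with a mean of 14.7 bases against 11.98 (exact permutation p = 0.00476, adjusted p = 0.0873). Direct joins of JH4 to D, assigned by position, differed in the same direction for families 1 and 2. Family 2 made up 61.95% ± 1.57 of direct joins in bone marrow and 26.8% ± 1.0 in parental cells without IAA. Family 1 made up 29.9% ± 1.3 and 66.5% ± 0.15, and family 4 5.78% ± 0.63 and 6.11% ± 0.98. Whether inserts differed more than direct joins was not tested. Parental replicates 3 and 4, whose genotype labels carry the word WT, had the higher family 1 shares of inserts. They were also sequenced in another run than replicates 1 and 2. Their libraries held 112507 to 116863 junctions, against 7247 to 8857 in replicates 1 and 2. Label, run and depth cannot be told apart here. No adjusted p of these composition tests was below 0.0873. As bone marrow and parental libraries shared no sequencing run, the bone marrow differences cannot be told apart from differences between runs.

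With IAA, family 1 inserts were less frequent in the CTCF degron and CTCF tagging only lines. In CTCF degron cells the family 1 share was 25.6% ± 4.4 with IAA (lowest 19.5%, median 27.8%, highest 29.7%, n = 6) and 45.1% ± 11.2 without (lowest 30.4%, median 47.3%, highest 59.7%, n = 6). Every replicate with IAA lay below every replicate without it (exact permutation p = 0.00217, the smallest this design allows, adjusted p = 0.0873). In the control lines the family 1 share was also lower on average with IAA, but replicates overlapped: 28.6% ± 3.3 with and 39.8% ± 11.5 without in parental cells, and 30.4% ± 5.6 and 37.1% ± 4.1 in Ostir only (n = 4 each, exact permutation p = 0.114 each). In CTCF degron cells family 2 was 51.5% ± 6.5 with and 37.2% ± 6.0 without IAA (exact permutation p = 0.00217, adjusted p = 0.0873), and family 4 was 21.0% ± 7.2 and 15.1% ± 6.5 (exact permutation p = 0.162). In the CTCF tagging only line the family 1 share was 31.2%, 43.3%, 34.5% and 32.5% with IAA and 51.5%, 56.3%, 48.0% and 51.4% without, again with no overlap (exact permutation p = 0.0286, adjusted p = 0.242). Its family 2 share was 51.0% ± 6.2 with and 37.5% ± 5.2 without IAA (n = 4, exact permutation p = 0.0286, adjusted p = 0.242). Replicates of this line deviate together by number, and with the replicate block both its differences had an exact sign-flip p of 0.125, the smallest for 4 pairs. Whether the IAA difference is larger in one line than in another was not tested. Direct joins of JH4 to D, assigned by position, had family 1 shares of 40.8% ± 6.5 with and 67.6% ± 7.3 without IAA in CTCF degron cells, 63.1% ± 5.3 and 71.3% ± 4.7 in the CTCF tagging only line, 58.3% ± 1.5 and 66.5% ± 0.15 in parental cells, and 54.9% ± 4.6 and 60.9% ± 6.5 in Ostir only.

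Ighd4-1 was frequent among the inserts of the Rad21 degron lines before any IAA. It made up 22.7%, 25% and 25.3% of sense D inserts in the 3 Rad21 degron replicates without IAA, all above the parental replicates (exact permutation p = 0.0286, adjusted p = 0.242). This level was not particular to that line. CTCF degron replicates ranged from 9.70% to 26.1% without IAA and from 8.11% to 26.8% with it. With IGCR1 deleted the 4 replicates stood at 36.7%, 32.3%, 30.8% and 40.5%, all above the Rad21 degron line with IGCR1 (exact permutation p = 0.0286, adjusted p = 0.242). At 8 matching bases this second difference was 11.2 percentage points with a permutation p of 0.114. The parental, Rad21 degron and IGCR1-deleted lines shared no sequencing run, so line and run cannot be told apart in these comparisons. In parental cells the share was 13.5%, 15.1%, 14.5% and 15.6% with IAA, above the replicates without IAA (exact permutation p = 0.0286, adjusted p = 0.242), and the p was 0.0857 with 6 or 8 matching bases. Across the cell lines, direct joins to Ighd4-1 were 6.11% of direct D joins in parental, 15.2% in Rad21 degron and 30.6% in IGCR1-deleted cells, each without IAA.

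Compared within replicates, head-to-head JH joins carried Ighd4-1 more often than VH joins in the lines and less often in bone marrow. In CTCF degron cells without IAA family 4 was 15.1% ± 6.5 of D inserts at JH and 5.23% ± 1.5 at VH, higher at JH in 6 of 6 replicates. With IAA it was 21.0% ± 7.2 and 7.09% ± 1.1, also higher in 6 of 6 (exact sign-flip test p = 0.0313 each, adjusted p = 0.229 over 44 tests). In bone marrow it was 1.27% ± 0.62 at JH and 3.00% ± 0.59 at VH, lower in 6 of 6, while family 2 was higher at JH, with 80.0% ± 2.7 against 65.5% ± 1.7, in 6 of 6 (exact sign-flip p = 0.0313 each, adjusted p = 0.229). The other lines have 3 or 4 replicates, and there no exact sign-flip test can go below p = 0.125. Family 4 was higher at JH in all 4 replicates of parental cells with and without IAA, of Ostir only without IAA, of CTCF tagging only with and without IAA and of the IGCR1-deleted line without IAA, in 3 of 3 Rad21 degron replicates without IAA, and in 3 of 4 of Ostir only with IAA.

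**Figure D3:**
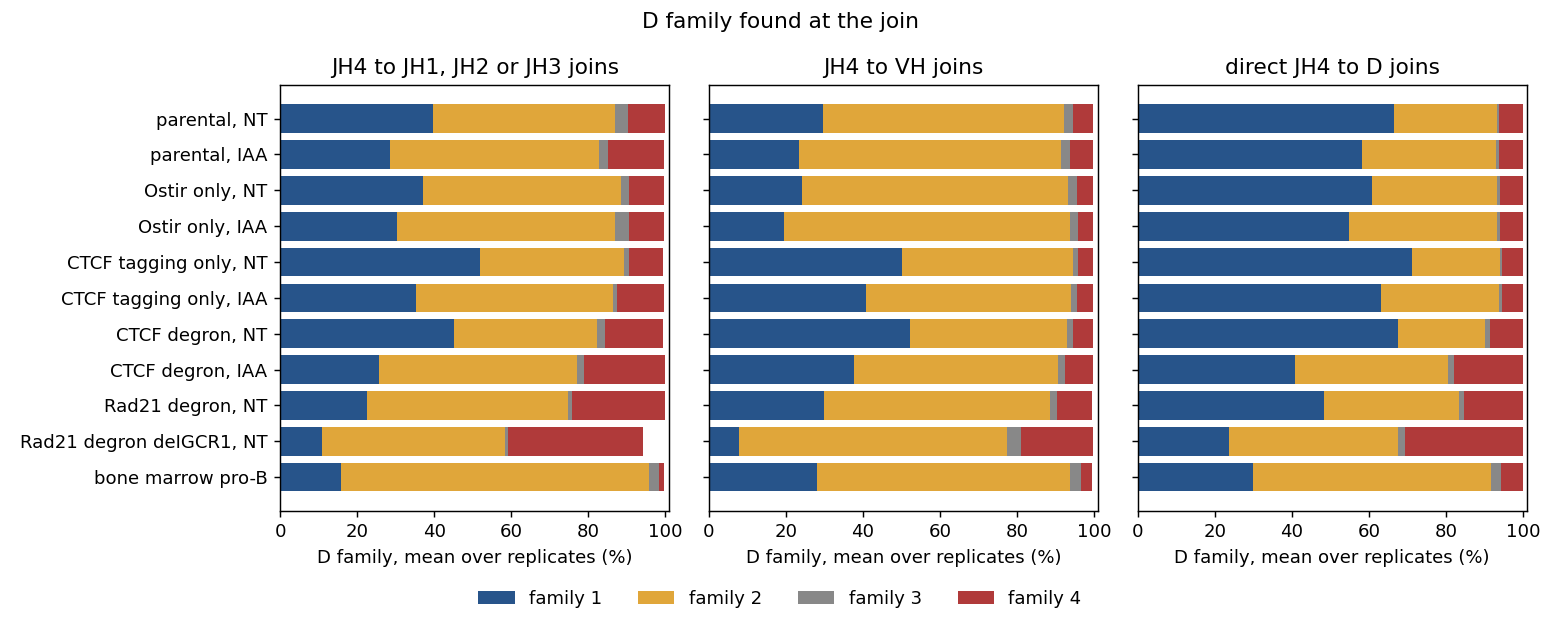
Mean percent of D segments by family (x axis) in each group (y axis), for D inserts of JH4 to JH1, JH2 or JH3 joins, for D inserts of JH4 to VH joins, and for direct JH4 to D joins. Family 2 fills 80.0% of the JH panel in bone marrow and 37.2% in CTCF degron cells without IAA. A bar that stops short of 100% leaves out inserts that matched 2 families equally well.

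The share of all junctions that fell in the JH cluster was highest in bone marrow. It was 1.82% ± 0.25 there (lowest 1.47%, median 1.78%, highest 2.12%, n = 6) and 0.767%, 0.796%, 0.728% and 0.586% in the 4 parental replicates without IAA. Every bone marrow replicate lay above every parental one, a ratio of 2.53 (difference 1.10 percentage points, SE 0.11, two-sided exact permutation p = 0.00476, adjusted p = 0.0667 over 14 comparisons). At the JH1, JH2 and JH3 coding ends alone the shares were 1.71% ± 0.25 and 0.668% ± 0.094 (exact permutation p = 0.00476, adjusted p = 0.163 over 308 tests of further measures). Bone marrow and parental libraries shared no sequencing run, so the part of run in these differences cannot be told. Depth was 30090 to 89909 junctions per bone marrow library and 7247 to 116863 per parental library without IAA, where a count of 3 junctions is at most 0.0414% of a library. In bone marrow replicates 1, 2 and 3, 85.4%, 82.6% and 87.4% of junctions carried a mark in a filter column of the deposited list. Replicates 4 to 6 and the cell line libraries had no marked junctions. Marked junctions were kept in this depth and in the shares.

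Among the cell lines the group means lay between 0.719% and 0.994%, and parental cells without IAA were the lowest. Parental cells with IAA had 0.836%, 0.892%, 0.818% and 0.849%, all above the same line without IAA (difference 0.130 percentage points, SE 0.049, exact permutation p = 0.0286). Against parental cells without IAA, the differences were 0.118 points in Ostir only without IAA, 0.212 in CTCF tagging only without IAA, 0.261 in the Rad21 degron line without IAA and 0.234 in CTCF degron with IAA. The exact permutation p was 0.0286 for the first 3 of these 4 and 0.00952 for CTCF degron with IAA. No sequencing run held parental together with Rad21 degron or CTCF degron libraries, so line and run cannot be told apart in those differences. Ostir only and parental replicates without IAA deviated together by number, and with the replicate block that difference had an exact sign-flip p of 0.125, the smallest for 4 pairs. In total 6 of 14 comparisons had a permutation p of 0.05 or lower, all of them against parental cells without IAA, which they share, and 0 had an adjusted p that low (lowest 0.0667). When identical junctions were counted once, the parental IAA difference was 0.0694 points (exact permutation p = 0.629), and those of Ostir only, CTCF tagging only, Rad21 degron and CTCF degron with IAA were 0.170, 0.181, 0.0620 and 0.00508, with exact permutation p between 0.200 and 0.948. Of the 6 differences only that of bone marrow kept a permutation p under the threshold with that count.

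**Figure D4:**
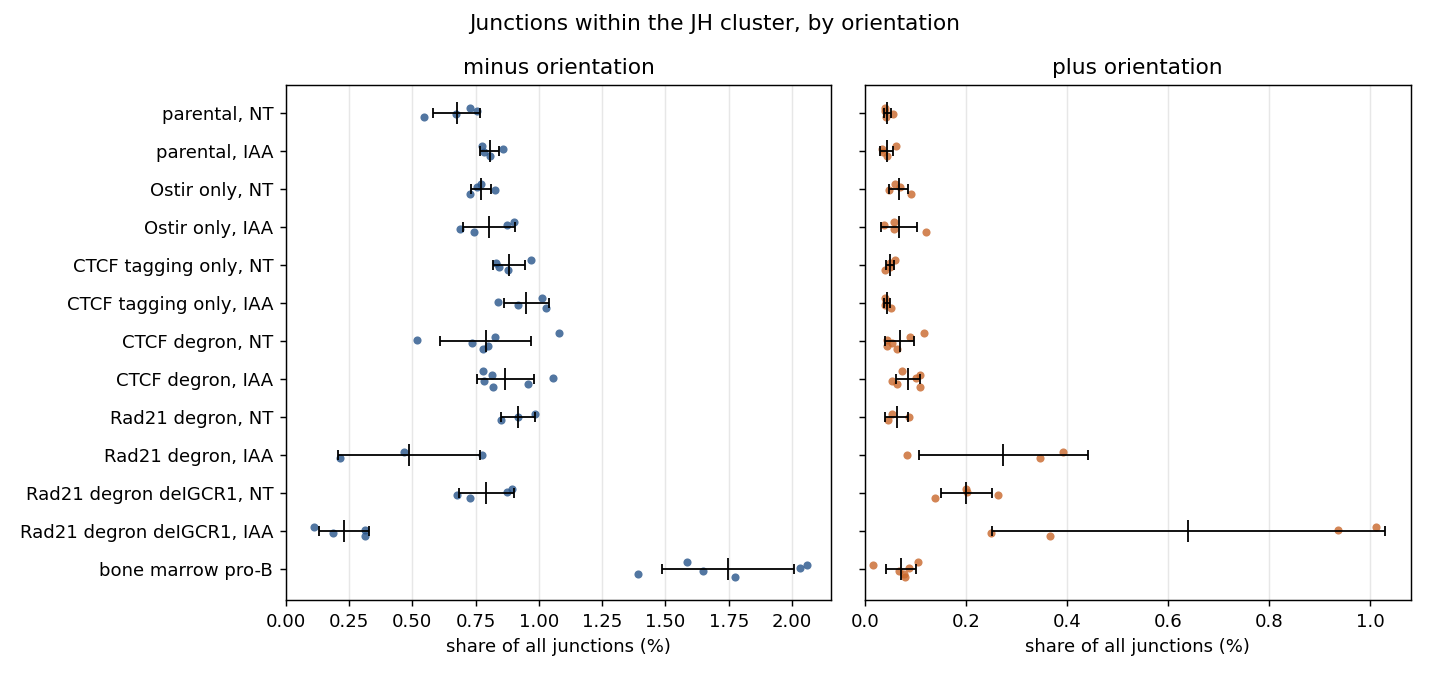
Share of all junctions that fell in the JH cluster window (x axis, percent) in each of the 13 groups (y axis), with minus and plus orientation drawn separately. Points are replicates, each the mean of its a and b libraries where it had both, and bars mark group means ± SD. Minus-orientation shares of bone marrow lie at 1.39% to 2.06%, and the mean minus-orientation share is lowest in the IGCR1-deleted line with IAA.

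CTCF degron cells with and without IAA had window shares of 0.953% ± 0.118 and 0.858% ± 0.205 (n = 6 each, exact permutation p = 0.340). Minus-orientation shares were 0.868% ± 0.112 and 0.789% ± 0.180 (exact permutation p = 0.409). Neither difference was larger than the spread between replicates, although without replicate 1 of the cells without IAA the window difference was 0.162 points (exact permutation p = 0.0476). One small class did differ: plus-orientation junctions away from the JH segment ends made up 0.0237% ± 0.0033 with IAA (lowest 0.0187%) and 0.0131% ± 0.0038 without (highest 0.0180%), with no overlap (exact permutation p = 0.00217, adjusted p = 0.163). These shares rest on 43 and 35 junctions. In the Ostir only and CTCF tagging only lines the window share with IAA differed from that without by 0.0324 and 0.0612 points (exact permutation p = 0.543 and 0.286).

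As a share of all junctions, head-to-head JH joins were fewer with IAA in the Rad21 degron line with IGCR1 deleted. There the minus-orientation share was 0.896%, 0.874%, 0.676% and 0.726% without IAA and 0.112%, 0.312%, 0.187% and 0.314% with it. The 2 groups did not overlap, and the mean fell by 0.562 percentage points (SE 0.074, exact permutation p = 0.0286, the smallest this design allows, adjusted p = 0.251). The shares at the JH3, JH2 and JH1 coding ends fell by 0.267, 0.208 and 0.104 points, each with an exact permutation p of 0.0286. With IGCR1 present the minus-orientation share was 0.986%, 0.919% and 0.850% without IAA and 0.469%, 0.776% and 0.214% with it, again without overlap, in a design of 3 against 3 whose smallest p is 0.1 (exact permutation p = 0.1). Libraries with IAA held 609 to 1365 junctions in the Rad21 degron line and 1608 to 2668 in the IGCR1-deleted line, and they gave only 20 and 17 joins at JH1 to JH3 in all.

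In these lines direct junctions at Ighd4-1 made up most of the total with IAA, so the share depends on what it is divided by. Ighd4-1 made up 14.5% ± 2.0 of all junctions without and 56.7% ± 6.0 with IAA in the Rad21 degron line, and 14.1% ± 2.2 and 54.1% ± 0.97 in the IGCR1-deleted line. With these junctions taken out of the total, the minus-orientation share in the Rad21 degron line was 1.23% ± 0.77 with and 1.07% ± 0.075 without IAA, which turns the direction round. In the IGCR1-deleted line it was 0.505% ± 0.220 and 0.921% ± 0.107, still lower with IAA. Of the 17 joins at JH1 to JH3 in the IGCR1-deleted line with IAA, 7 held a sense D, 6 of them Ighd4-1, and 5 an antisense D, all 5 Ighd4-1. Of the 20 in the Rad21 degron line with IAA, 10 held a sense D, 6 of them Ighd4-1, and 1 an antisense D.

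Plus-orientation junctions were more frequent with IAA in 3 of the 4 replicates of the IGCR1-deleted line. They made up 1.01%, 0.936%, 0.249% and 0.366% of all junctions with IAA and 0.200%, 0.202%, 0.263% and 0.138% without, and replicate 3 with IAA lay within the range of the untreated replicates (difference 0.440 points, SE 0.196, exact permutation p = 0.0571, adjusted p = 0.303). Most were at or near JH4, beyond the bait end: 0.787%, 0.847%, 0.187% and 0.209% with IAA against 0.0444%, 0.0783%, 0.169% and 0.00691% without (exact permutation p = 0.0286, adjusted p = 0.251), from 47 and 28 junctions. In 44 of those 47 the bait alignment stopped and the prey alignment began before the JH4 coding end, with a median of 26 bases skipped. The bait alignments of the 47 ended a median of 85 bp short of that end. Both sides of the gap thus lay on the bait side of the JH4 coding end, and at that median distance the bait ended outside the JH4 gene model. Such reads were 147 of the 361 junctions of this class in all libraries, 26 of 28 in the IGCR1-deleted line without IAA, 10 of 11 in the Rad21 degron line without IAA, and 4 of 51 in bone marrow. In the Rad21 degron line with IGCR1, plus-orientation shares were 0.393%, 0.0821% and 0.347% with IAA and 0.0537%, 0.0878% and 0.0454% without, with overlap (exact permutation p = 0.2), and 6 of its 7 junctions beyond the bait end with IAA had both sides of the gap before the JH4 coding end. With junctions within 100 bp of the bait end left out, the window share of the IGCR1-deleted line fell by 0.542 points with IAA (exact permutation p = 0.0286), against 0.122 points over the whole window (exact permutation p = 0.571).

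The plus-orientation junctions at JH1, JH2 and JH3 had a different make-up from the minus ones. Their inserts had a median of 2 bases at each segment, and between 71.2% and 74.6% of them had any inserted base, against 90.3% to 95.9% of the minus joins. They fell on the signal side, with recurrent positions at 114671696 (167 junctions, 57 libraries), 114672077 (47, 22 libraries) and 114672395 (34, 21 libraries), within 3 bp of the 3 coding ends. Their summed share was 0.0312% ± 0.0083 in parental cells without IAA (n = 4), 0.0375% ± 0.0152 in CTCF degron without IAA (n = 6) and 0.0234% ± 0.0141 in bone marrow (n = 6), and it passed the test in none of 14 comparisons.

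The plus-orientation junctions elsewhere included one recurrent position at the far edge of JH1. At 114672337, 57 bp from the JH1 coding end and just outside the JH1 gene model, 92 junctions from 37 libraries of 10 groups were found. In 88 of them bait and prey shared the same 21 bases, and the bait alignment ended 38 bp short of the JH4 coding end.
bases shared at JH4 and JH1: CTTACCTGAGGAGACGGTGAC

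The run, read from the bait on the plus strand, spans the end of both gene models away from the coding ends, so the position of the exchange within it cannot be told. A last recurrent position, 114671064, lay 63 bp short of the JH4 coding end with 23 junctions in 16 libraries of 9 groups and belongs to the class beyond the bait end.

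Most cell line replicates had an a and a b library, which differ in the bait. The first bases of the bait are shown for the 3 kinds of library, with the bases that tell them apart in capitals.
library a: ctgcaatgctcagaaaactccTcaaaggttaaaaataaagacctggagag
library b: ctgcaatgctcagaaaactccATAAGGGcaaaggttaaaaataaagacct
bone marrow: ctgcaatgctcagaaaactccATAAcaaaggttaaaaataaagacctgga

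These bases were read in 98.95% of a reads, 97.27% of b reads and 98.77% of bone marrow reads, and each kind was found in at most 0.0122% of the reads of another. Prey positions were shifted by -3 bp in a libraries and by 3 bp in b libraries relative to bone marrow, in at least 99.78% of matched reads, and were put on the bone marrow frame. The labels do not say what a and b stand for. The window share averaged 0.868% in a and 0.888% in b libraries, and a was higher in 20 of 42 replicates. No group showed a difference between a and b in the window, minus or plus share with an exact sign-flip p of 0.05 or lower, a level that only the 2 CTCF degron groups can reach.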

How the data were processed

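Each deposited table lists the junction reads of a library, with the position and orientation of the prey, the alignment bounds and the bases of the read, which is a unit other than counts or levels. The authors aligned the reads with Bowtie2 to an AJ851868/mm9 hybrid genome, per the labels and the submitters' processing notes (versions and filters are not given in the sources used here). The 12 lists of off-target junctions were left out. Junctions with a mark in a filter column, all of them in bone marrow replicates 1 to 3, were kept.

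Positions were put on the bone marrow frame with short sequences from the reads, and JH and D segments were read from the deposited sequences and matched to mm9. D segments were sought in the bases between bait and prey, with 7 or more matching bases. The share of all junctions was taken per library, a and b libraries of a replicate were averaged, and groups were tested over replicates by exact permutation (two-sided), called at p of 0.05 or lower. Benjamini-Hochberg values cover the 14 comparisons, and separately 308 tests of orientation, distance and position classes. Composition and within-replicate tests have their own families. The test was tried on simulated data. Groups follow sample titles; 4 libraries titled IAA lack IAA in the treatment label. The members, lists and tests were chosen with earlier results of these data known, and the position classes, D search and composition tests were added after the reads were seen. The named positions are those with the highest mean share per orientation, over 25 bp apart and present in at least 7 groups. Reads carry no molecular identifiers, so the limit of 3 counts covers counting error only. Python 3.11.15, NumPy 2.4.6, pandas 2.3.3, SciPy 1.17.1 and matplotlib 3.10.9 were used.

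Whether same-numbered replicates are paired was checked by the correlation of their deviations over 30 bins of the locus. All correlations were above 0.1 in 3 of 14 comparisons (Ostir only with against without IAA, r 0.444 to 0.685; CTCF tagging only with against without IAA, 0.612 to 0.918; Ostir only against parental, both without IAA, 0.207 to 0.344).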

Additional observations from a re-analysis of the deposited data

Results flagged for a closer look

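Of the parental replicates without IAA, replicate 3 had a plus-orientation share of 0.0549%, apart from the other 3 at 0.0398% to 0.0418%. Chance sets a sample apart in this way in about 1 of 20 groups, and 33 such tests were run.

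The effect of IAA was set against that in the parental line by arranging the treatment labels within each line, which tests for no effect in either line rather than for equal effects. In percentage points of all junctions, the IAA effect on the JH cluster share differed by -0.35 in the Rad21 degron line from that in parental cells (exact permutation p = 0.00143, the smallest this design allows, adjusted p = 0.00571 over 12 tests), and by -0.252 in the IGCR1-deleted line (exact permutation p = 0.234, adjusted p = 0.468). The effect on the minus-orientation share differed by -0.563 in the Rad21 degron line (exact permutation p = 0.00143, adjusted p = 0.00571) and by -0.692 in the IGCR1-deleted line (exact permutation p = 0.000408, adjusted p = 0.0049). For the plus-orientation share of the IGCR1-deleted line the difference was 0.441 (exact permutation p = 0.0359, adjusted p = 0.108). Libraries of these lines with IAA are shallow, and the direction in the line with IGCR1 depends on whether Ighd4-1 junctions are in the total, as given above. Between the lines with and without IGCR1 the minus-orientation effects differed by 0.130 points (exact permutation p = 0.694).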

How the results depend on the processing

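Differences below are in percentage points of all junctions. With identical junctions counted once (31.4% of lines removed, 15.6% in the window), the window differences against parental cells without IAA were 0.0694 (parental with IAA), 0.00508 (CTCF degron with IAA), 0.0620 (Rad21 degron), 0.170 (Ostir only) and 0.181 (CTCF tagging only), and that of the IGCR1-deleted line against Rad21 degron without IAA was -0.0317. The minus-orientation differences were 0.0808, -0.0185 (CTCF degron without IAA -0.0111), 0.0574 and 0.184 for parental with IAA, CTCF degron with IAA, Rad21 degron and CTCF tagging only, and -0.0074 for CTCF degron with against without IAA. Of 168 orientation and distance tests 21 were called, and 12 with that count.

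With the replicate block, whose 3 or 4 pairs cannot go below p = 0.25 or 0.125, the window differences were 0.130, 0.223, 0.217, 0.118, 0.212 and 1.18 (bone marrow), and the minus ones 0.131, 0.183, 0.200, 0.206 and 1.16, and -0.562 for the IGCR1-deleted line with against without IAA; none of these kept its call, and no call was gained. Where the numbers pair the samples, this ended the Ostir only call. In b libraries alone, parental with IAA gave 0.110, Rad21 degron 0.199 and Ostir only 0.0662. Within sequencing runs, values were 0.177 and 0.189 in run 11 for parental with IAA and Ostir only, 0.150 in run 7 for CTCF tagging only, -0.0422 for Ostir only with against without IAA and 0.00499 for the IGCR1-deleted line in run 3.

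With Ighd4-1 junctions out of the total, the window differences with IAA were 0.727 in the Rad21 degron and 0.732 in the IGCR1-deleted line, and the minus difference of the former was 0.159. Without junctions within 100 bp of the bait end, the IGCR1-deleted line gave -0.542 with IAA, -0.0588 against Rad21 degron without IAA and -0.248 with it; with the window narrowed by 500 bp the second was -0.0141.

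Leaving out 1 replicate at a time, the window differences ranged from 0.0855 to 0.155 for parental with against without IAA, -0.247 to 0.0235 for the IGCR1-deleted and 0.0356 to 0.162 for the CTCF degron line, and, against parental without IAA, from 0.0712 to 0.198 (CTCF degron without IAA), 0.217 to 0.304 (Rad21 degron) and 0.0736 to 0.143 (Ostir only). With against without the IGCR1 deletion they ranged from -0.0294 to 0.0563 without IAA and -0.0139 to 0.257 with it. The minus differences ranged from 0.0871 to 0.158 (parental with IAA), 0.149 to 0.220 (CTCF degron with IAA, call ended without parental replicate 4), 0.0564 to 0.169 (CTCF degron without IAA, called without its replicate 3, as was its window difference), 0.200 to 0.277 (Rad21 degron), 0.0519 to 0.122 (Ostir only, called without parental replicate 2), 0.163 to 0.233 (CTCF tagging only, call ended without its replicate 1) and -0.0020 to 0.0696 (Ostir only with against without IAA). The Rad21 degron calls ended in every such fit, where 2 against 4 or 3 against 3 replicates cannot go below p = 0.0667 or 0.1, the parental IAA calls when any replicate with IAA was left out, and the Ostir only window call when any Ostir only replicate was. The bone marrow calls and the minus call of the IGCR1-deleted line with IAA held in all of them. The 4 libraries titled IAA without that treatment label changed none of the 4 window comparisons they enter when left out, an alternative chosen after seeing the data.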
